A study of Mus musculus with 4 samples.

Results

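The genes described here encode the proteasome and the proteins that build and gate it, leaving out the 3 inducible catalytic subunits. They were chosen by symbol: a gene was taken if its symbol begins with Psm, a letter from a to g and a digit, if it has a protein-coding transcript, and if it is not Psmb8, Psmb9 or Psmb10. The pattern matched 54 genes. Leaving out those 3 and 4 pseudogenes without a protein-coding transcript (Psmb5-ps, Psmb6-ps, Psmb6-ps2 and Psmb7-ps2) gave 47 genes, out of 55536 Ensembl genes in the gene-level tables. By name they fall into 8 alpha and 8 beta subunits of the 20S core, 6 ATPases and 14 non-ATPase proteins of the 19S regulator, 5 activators, 1 inhibitor, 4 assembly chaperones and Psmc3ip. Psmc3ip is a meiotic recombination factor named after its partner, so it met the rule on its symbol without being a proteasome part.

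The samples were 4 polyA RNA-seq libraries of macrophages grown from bone marrow (BMDM) of C57BL/6J mice, all in 1 group. By the sample descriptions the cells had Lipid A, the TLR4-binding moiety of lipopolysaccharide, at 100 ng/mL for 12 h, none for the next 12 h, and 100 ng/mL once more for 60 min. The labels conflict, since the source names write lipoprotein A for the agent and mention no washout. All 4 libraries carry 1 donor record, and neither age nor sex was collected. Whether separate animals were used is not given, so every p below measures only the spread between these libraries. The group holds no untreated cells, so the levels given here describe 1 state and no response.

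The proteasome is the protease that degrades proteins tagged with ubiquitin. Its 20S core is a stack of rings, with alpha subunits outside and beta subunits inside, and its cutting sites lie on the beta subunits Psmb5, Psmb6 and Psmb7. The 19S regulator caps the core: its ATPases unfold the substrate, and its non-ATPase proteins bind and remove ubiquitin. In cells that respond to interferon, Psmb8, Psmb9 and Psmb10 can take the places of Psmb5, Psmb6 and Psmb7, and the activator ring of Psme1 and Psme2 can cap the core in place of the 19S, which is known to alter the peptides offered on MHC class I.

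The libraries held 26613690, 23167140, 41453162 and 34946569 expected counts on genes in replicates 1 to 4. Replicates 1 and 2 came from 6 read files each, and replicates 3 and 4 from 4 each. All 8 macrophage markers looked at (Adgre1, Cd68, Csf1r, Lyz2, Itgam, Fcgr1, Mertk and Cd14) had at least 1 TPM (a level corrected for transcript length and sequencing depth) in each library, and their sum was 16689 to 19742 TPM. Most of that sum was Lyz2, at 10390 to 12670 TPM. No marker of B cells (3), T cells (3), dendritic cells (3), erythroid cells (3) or stroma (4) reached 1 TPM in every library. In replicate 3 the stroma markers Col1a1 and Col1a2 had 1.09 and 1.49 TPM. Of 7 neutrophil markers 2 reached 1 TPM in every library, S100a8 and S100a9, while Ly6g was listed at 0 throughout. Most of the neutrophil sum came from S100a8 and S100a9. The sum was uneven, at 131.5 and 103.9 TPM in replicates 1 and 3 against 13.0 and 12.6 TPM in replicates 2 and 4. Mitochondrial genes held 1.94%, 2.79%, 4.77% and 3.99% of TPM.

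Short stretches of the promoters are shown first, because proteasome genes are known to be raised together by NFE2L1, which acts through a promoter element. RefSeq (build GRCm38.p6) gave a promoter, from 250 bases before the start site to 50 after it, for 39 of the 47 genes, with 42 windows. The antioxidant response element that NFE2L1 and NFE2L2 bind was searched on both strands as TGACNNNGC. It was found in 6 of the 39 genes, or 15.4%, beside 13.99% of all 27025 genes in the table. This share was close to that of all genes. The matches of the catalytic subunits Psmb5 and Psmb6 and of Psmd9 begin 47, 9 and 31 bases before the start site. Those of Psmc6 and Psmd12 begin 227 and 247 bases before it, and that of Psme4 runs across it. The matches of Psmb5, Psmb6 and Psmd9 are printed 5′ to 3′ on the gene's strand with the match in capitals.
Psmb5, chr14:54618024-54618052, minus strand: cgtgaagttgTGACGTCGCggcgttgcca
Psmb6, chr11:70525338-70525356, plus strand: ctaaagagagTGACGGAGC
Psmd9, chr5:123228149-123228177, plus strand: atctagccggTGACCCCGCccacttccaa

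A further motif, bound by ETS factors, was searched in the same way. The ETS core CCGGAAG was found, on either strand, in 15 of the 39 genes, or 38.5%, beside 9.93% of all genes. No test was made of this difference. Here and for the other motifs, all genes are those with a promoter, whether detected in these libraries or not. The genes with it were Psma6, 3 of the ATPases (Psmc1, Psmc2 and Psmc6), 6 of the non-ATPase genes (Psmd2, Psmd4, Psmd6, Psmd11, Psmd12 and Psmd13), Psme3, Psme4, Psmg1, Psmg3 and Psmc3ip. Matches in the ATPase promoters and in that of Psmd2, a scaffold protein of the 19S, read as follows.
Psmc1, chr12:100110164-100110190, plus strand: ggtggatgcaCTTCCGGcggtggcgat
Psmc2, chr5:21786713-21786739, plus strand: cgcggagctaCTTCCGGtggggaagag
Psmc6, chr14:45329714-45329740, plus strand: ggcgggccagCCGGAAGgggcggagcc
Psmd2, chr16:20651616-20651642, plus strand: ccgcagggcgCTTCCGGtctggaggac

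The other 3 motifs gave a mixed picture. The CCAAT box (CCAAT) was found in 14 of the 39 genes, or 35.9%, beside 41.1% of all genes. The TATA box (TATAAA) was in 3 genes (Psmb4, Psmd1 and Psmd6), or 7.69%, beside 15.7%. A core of the interferon-stimulated response element (GAAA repeated after 2 bases of any kind) was in 5 genes (Psmb3, Psmd4, Psmd9, Psme1 and Psmg4), or 12.8%, beside 3.99%. All 5 motifs were searched on both strands, and in no member's window did matches of different motifs share a base. A match is a run of letters and not a bound site.

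In each library 46 of the 47 genes reached 1 TPM or more. Together they held 5848, 6508, 6454 and 6421 TPM in replicates 1 to 4, between 0.585% and 0.651% of the total. The median over the 47 genes was 6.65 ± 0.08 on the log2(TPM + 0.1) scale (SD over libraries, n = 4). Mean levels of the 46 ran from 2.41 TPM to 755 TPM. Set in order of their means, the 47 genes make 46 pairs of neighbours, and the ranges over libraries overlapped in 40 of them. The exceptions were Psme2 over Psme1, Psme1 over Psmb6, Psma3 over Psma7, Psmg4 over Psmf1, Psmg1 over Psmc3ip and Psma8 over Psmb11, so beyond the activators at the top the order is largely one of neighbours that these libraries do not separate. Psma3 over Psma7 held in the first quantification and turned in the second, described below, where Psma3 had 143 TPM and Psma7 157 TPM.

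**Figure D1:**
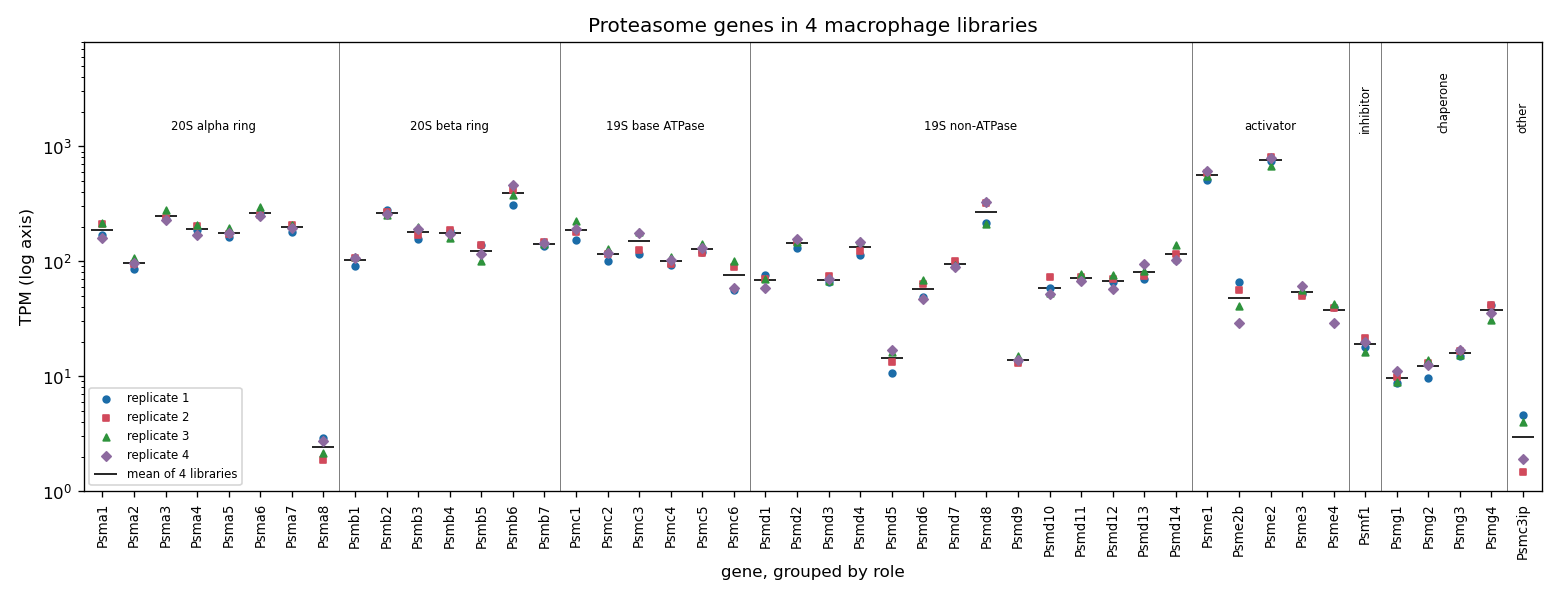
TPM (log axis) of 46 proteasome genes in each of 4 libraries, grouped by role, with the mean as a black line. Psmb11, at 0 in each library, is not drawn. Psme1 and Psme2 stand at the top, the 20S core genes lie mostly between 95.9 and 390 TPM, and Psma8 and Psmc3ip lie lowest, at means of 2.41 and 2.99 TPM.

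In the alpha ring, which forms the gate of the core, Psma1 to Psma7 had means between 95.9 and 264 TPM, a 2.75-fold range. The highest was Psma6, with 261.52, 250.83, 295.55 and 248.55 TPM in replicates 1 to 4 (264 ± 21.7 TPM, SD, n = 4), and the lowest of these 7 was Psma2 at 95.9 ± 8.21 TPM. Replicate 3 held the highest value of Psma6. Psma8, the alpha subunit of the testis proteasome that stands in for Psma7, had 2.90, 1.86, 2.17 and 2.72 TPM (2.41 ± 0.48 TPM), far under the 197 ± 13.2 TPM of Psma7. Psma8 was counted in every library, with at least 28 counts in each.

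In the beta ring Psmb1 to Psmb7 had means from 103 to 390 TPM, a 3.79-fold range. Psmb6, which carries the caspase-like site, was the highest with 310.56, 414.84, 374.89 and 461.35 TPM (390 ± 63.9 TPM). Psmb5, which carries the chymotrypsin-like site, had 138.77, 139.49, 101.20 and 115.29 TPM (124 ± 18.7 TPM). Psmb7, which carries the trypsin-like site, had 135.01, 148.38, 141.31 and 143.55 TPM (142 ± 5.55 TPM). Psmb6 was thus above the other catalytic genes in every library, while Psmb5 and Psmb7 overlapped. Psmb1, a subunit without a cutting site, had 90.34, 106.09, 108.88 and 106.61 TPM (103 ± 8.51 TPM), with replicate 1 below the others. Psmb11, the catalytic subunit of the thymus, had no count in any library in the gene-level tables, and 3.15 to 5.51 estimated counts per library in the second quantification. For counting error alone a count of 0 allows up to 3 counts, or 0.0724 to 0.129 CPM (counts scaled to library size). The estimates of the second quantification lie above that limit, so it does not cover how reads were assigned.

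The 6 ATPases form one ring, and their means ran from 76.1 to 186 TPM, a 2.44-fold range. The highest was Psmc1 with 151.58, 178.28, 221.99 and 192.25 TPM (186 ± 29.3 TPM). The lowest was Psmc6 with 56.46, 88.92, 101.15 and 58.02 TPM (76.1 ± 22.4 TPM). Psmc6 was high in replicates 2 and 3 and low in replicates 1 and 4, and its highest library was 1.79 times its lowest. Psmc3, at 149 ± 33.0 TPM, shares 8.25% of its exonic bases with Slc39a13 on the opposite strand, and whether counting used strand is not given in the sources used here.

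The 14 non-ATPase genes had means from 13.9 to 268 TPM. The highest was Psmd8, a subunit of the lid, with 214.43, 318.06, 212.71 and 328.19 TPM (268 ± 63.4 TPM). Its values formed a low pair in replicates 1 and 3 and a high pair in replicates 2 and 4. Replicates 1 and 3 are also those with the higher neutrophil marker sums given above, and the part of these in the values of Psmd8 was not tested. The ubiquitin receptor Psmd4 had 134 ± 17.7 TPM, the deubiquitinase Psmd14 had 115 ± 16.8 TPM and the scaffold Psmd2 had 145 ± 10.5 TPM. The lowest was Psmd9, a chaperone of base assembly, with 13.63, 13.11, 15.05 and 13.92 TPM (13.9 ± 0.82 TPM). Psmd9 shares 25.5% of its exonic bases with the opposite-strand transcript Gm26745, which was at 0.01 TPM. Psmd5 and Psmd10 are base chaperones too and leave the finished particle: their means were 14.3 ± 2.93 TPM and 59.1 ± 9.54 TPM, while the 11 subunits that stay had means between 56.9 and 268 TPM. In every library the values of Psmd5 and Psmd9 lay below those of all 11.

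By part of the particle, the median over genes was 184 TPM for the 14 subunits Psma1 to Psma7 and Psmb1 to Psmb7, 121 TPM for the ATPases and 80.0 TPM for the 11 lasting non-ATPase subunits (medians of mean TPM). The 4 core chaperones Psmg1 to Psmg4 had a median of 14.1 TPM. The highest of these was Psmg4 with 41.55, 41.45, 31.07 and 35.13 TPM (37.3 ± 5.13 TPM), and the lowest was Psmg1, which pairs with Psmg2 to start alpha ring assembly, with 8.76, 9.78, 8.82 and 11.06 TPM (9.60 ± 1.08 TPM). Psmf1, known as the inhibitor PI31, had 17.78, 21.71, 16.36 and 19.76 TPM (18.9 ± 2.33 TPM). The chaperone genes and Psmf1 thus stood below every gene of the core in all 4 libraries, Psma8 and Psmb11 aside.

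The activators were both the most and among the less abundant transcripts of the set. Psme2, the beta chain of the ring that replaces the 19S cap, had 739.47, 810.22, 674.68 and 795.51 TPM (755 ± 61.6 TPM). Psme1, its alpha chain, had 507.43, 586.71, 554.03 and 608.18 TPM (564 ± 43.8 TPM). These values put Psme2 above 98.4% and Psme1 above 97.6% of the 10407 detected genes, those that reached 1 TPM in each library. Psme3, which forms a nuclear ring of its own, had 51.85, 49.47, 55.80 and 60.64 TPM (54.4 ± 4.89 TPM). Psme4, the large single-chain activator of the nucleus, had 39.60, 39.57, 42.20 and 28.91 TPM (37.6 ± 5.90 TPM). Psme3 and Psme4 thus lay far below Psme1 and Psme2 in each library, and below every core gene from Psma1 to Psma7 and Psmb1 to Psmb7.

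Psme2b needs separate reading, because it is a near copy of Psme2. Psme2 (chr14:55587441-55591087 for its leading transcript, minus strand) has 11 exons and Psme2b (chr11:48945354-48946190, minus strand) has 1, per the annotation GENCODE M21 on mm10. Both have 720 coding bases, of which 715 are identical, 99.3%. The differences, counted from 1 at the first coding base with the base of Psme2 first, are C312T, A369G, C489T, C519T and C543T. Coding bases 484 to 543 hold 3 of these 5, and are printed with the differing bases in capitals.
Psme2: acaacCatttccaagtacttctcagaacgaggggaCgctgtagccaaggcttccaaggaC
Psme2b: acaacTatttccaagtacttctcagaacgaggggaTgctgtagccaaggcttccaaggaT

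Of the distinct 50-base stretches in the Psme2b transcript, 68.7% also occur in Psme2. A read that lies wholly within sequence shared by both genes cannot be placed by sequence alone. To the extent that such reads occur, the values of Psme2b are uncertain. They were 65.96, 56.23, 41.12 and 29.05 TPM (48.1 ± 16.3 TPM), the higher pair in replicates 1 and 2. It also shares 41 exonic bases with 9930111J21Rik1 on the same strand, a gene at 44.2 TPM.

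Each inducible catalytic subunit replaces 1 constitutive one, so the transcript ratio within each pair was taken. Psmb8 had 755.62, 789.26, 669.14 and 719.33 TPM, against 101.20 to 139.49 TPM for Psmb5. The log2 ratio of Psmb5 to Psmb8 was -2.44, -2.50, -2.73 and -2.64 in replicates 1 to 4 (-2.58 ± 0.13), so Psmb8 was 5.97 times as abundant and made up 85.6% ± 1.09 of the pair. Psmb10 also led its pair: with 313.53, 359.76, 259.42 and 326.15 TPM it gave a log2 ratio of Psmb7 to Psmb10 of -1.14 ± 0.18 and a share of 68.7% ± 2.71. The pair at the caspase-like site ran the other way. Psmb9 had 200.89, 189.57, 151.67 and 174.90 TPM, all under the lowest value of Psmb6, and the log2 ratio of Psmb6 to Psmb9 was 0.63, 1.13, 1.31 and 1.40 (1.12 ± 0.34), with a Psmb9 share of 31.7% ± 5.28.

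Within the activators the log2 ratio of Psme1 to Psme2 was -0.54, -0.47, -0.28 and -0.39 (-0.42 ± 0.11), below 0 in each library. Psme1 exceeded Psme3 by 3.37 ± 0.13 and Psme4 by 3.92 ± 0.33 on the log2 scale. Each of the 6 ratios had the same sign in 4 of 4 libraries. An exact two-sided sign-flip permutation test over n = 4 libraries gave p = 0.125 for each, which is the smallest value this design allows, and 0.125 after Benjamini-Hochberg adjustment over the 6. No ratio could therefore pass a threshold of 0.05. Of the 6 ratios, 4 depend on the correction for length. From expected counts not divided by length, the log2 ratio of Psmb6 to Psmb9 was 0.22 in place of 1.12, with 3 libraries above 0 and 1 below. That of Psme1 to Psme2 was -0.05 in place of -0.42, with 2 libraries below 0 and 2 above. That of Psme1 to Psme3 was 1.91 in place of 3.37 and that of Psme1 to Psme4 was 1.16 in place of 3.92, both above 0 in 4 of 4 libraries. Psmb9 shares 5.79% of its exonic bases with Tap1 on the opposite strand, a gene at 275 TPM.

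**Figure D2:**
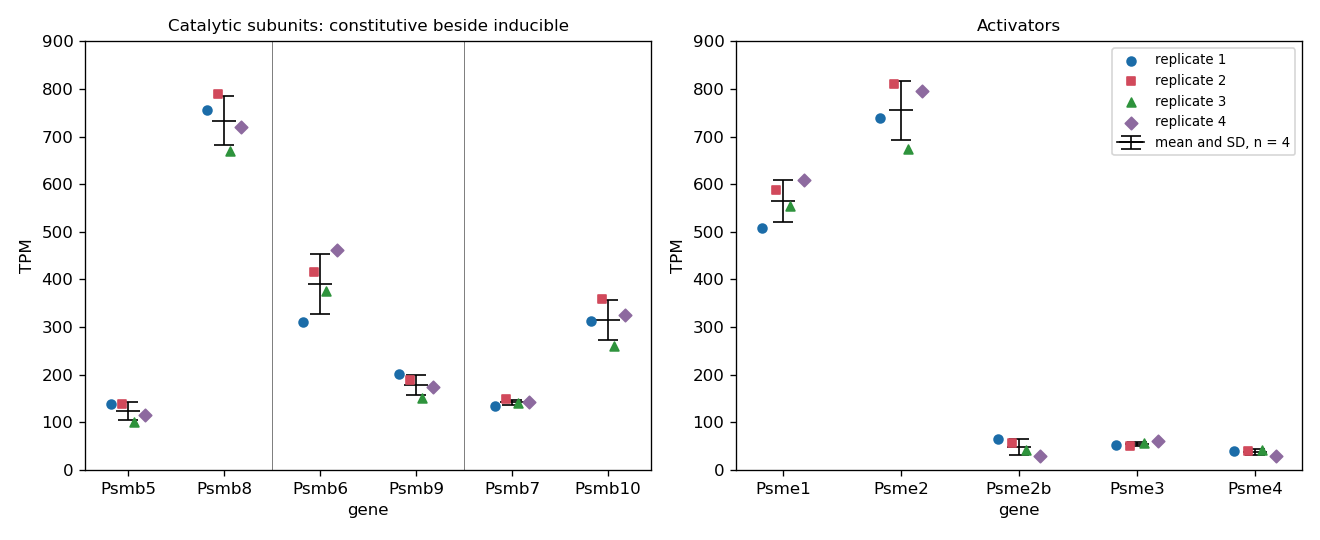
TPM of the constitutive catalytic genes beside their inducible counterparts (left) and of the activators (right), with each library as a point and the mean and SD over 4 libraries in black. Psmb8 and Psmb10 lie above Psmb5 and Psmb7 in each library, Psmb6 lies above Psmb9, and the lowest value of Psme1 and Psme2 is 507.43 TPM while the highest of Psme2b, Psme3 and Psme4 is 65.96 TPM.

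The set varied little between libraries. The coefficient of variation of TPM (SD over mean, n = 4) had a median of 10.7% over the 46 detected genes, beside 17.0% over all 10407 detected genes. Among the 1471 genes with a mean between 55.1 and 178 TPM, the middle range of these genes' own levels, it was 14.03%. These differences were not tested. It was under 10% for 21 of 46 (45.7%), beside 19.3% of all detected genes and 26.7% of those of like level, which both include the proteasome genes. Psmb2 and Psmb7 were the steadiest at 3.89% and 3.91%. At the other end stood Psmc3ip at 51.5%, Psme2b at 33.9%, Psmc6 at 29.4%, Psmd8 at 23.6%, Psmc3 at 22.2% and Psmd5 at 20.5%. Of these 6, the first is no proteasome part and the next is the copy of Psme2.

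**Figure D3:**
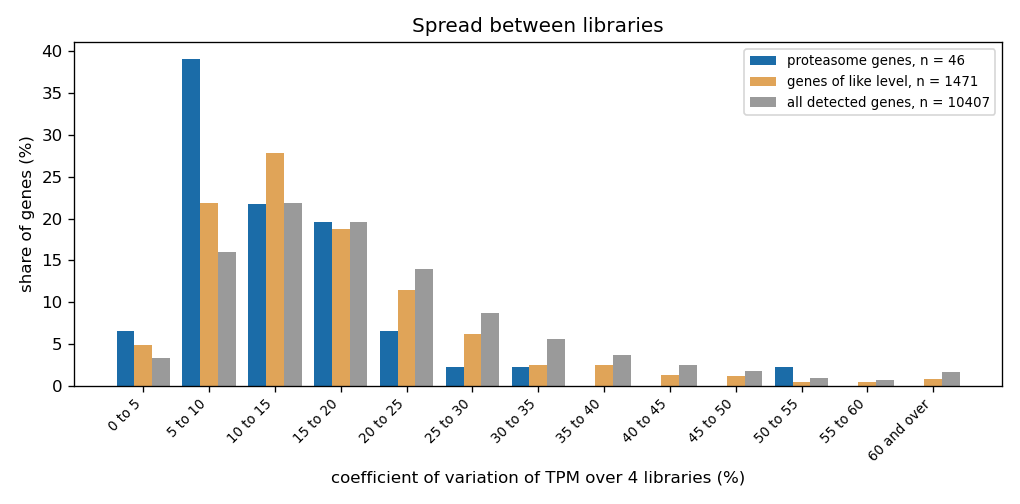
Share of genes (%) by coefficient of variation of TPM over 4 libraries (%), for 46 proteasome genes, 1471 genes of like level and 10407 detected genes. The proteasome genes peak at 5 to 10%, where 39.1% of them lie, beside 21.9% of genes of like level and 15.95% of all detected genes.

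A test of each gene's spread against that of genes of its abundance (edgeR, deviance against the trended dispersion with 3 degrees of freedom) called 305 of 11679 genes at an adjusted p of 0.05, or 2.61%. It called 0 of the 46 proteasome genes tested. At an unadjusted p under 0.05 there were 910 genes in all and 2 of the 46. These were Psme2b (edgeR adjusted p = 0.232) and Psmc3ip (edgeR adjusted p = 0.496). With the dispersion trend of DESeq2 it was 335 genes in all and again 0 of the 46. Psmc3ip had 4.62, 1.46, 3.96 and 1.91 TPM (2.99 ± 1.54 TPM), highest in replicates 1 and 3. The neutrophil markers S100a8, S100a9 and Ngp were also high there, while Mpo was highest in replicate 4, and their part was not tested. Psmc3ip shares 21.2% of its exonic bases with Mlx on the opposite strand, a gene at 44.97 TPM, and its lowest library had 18.3 counts.

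Genes of some parts leaned together in some libraries, by little, and the parts did not lean alike. On TMM-scaled CPM, all 6 ATPases and all 8 alpha genes lay above their own mean in replicate 3, with median deviations of 0.15 and 0.11 on the log2 scale. In the same library 2 of the 7 detected beta genes did, with a median of -0.09. In replicate 2 the median was -0.16 for the ATPases and -0.11 for the alpha genes, with 1 gene of each above its mean. In replicates 1 and 4 these parts went opposite ways: in replicate 1 the alpha genes had a median of 0.04, with 7 of 8 above their mean, and the ATPases -0.10, with 2 of 6, while in replicate 4 the medians were -0.06, with 3 of 8, and 0.04, with 5 of 6. The 14 non-ATPase genes leaned little, with medians of 0.03, -0.02, -0.005 and -0.03 in replicates 1 to 4. Of these 14, 9, 6, 7 and 7 lay above their mean. Over all 10407 detected genes 47.4%, 44.3%, 55.9% and 53.2% lay above their mean in replicates 1 to 4. Replicate 3 was also the library with the most counts and the highest mitochondrial share, and the part of either in these shifts was not tested. No gene of either ring was called in the test above.

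**Figure D4:**
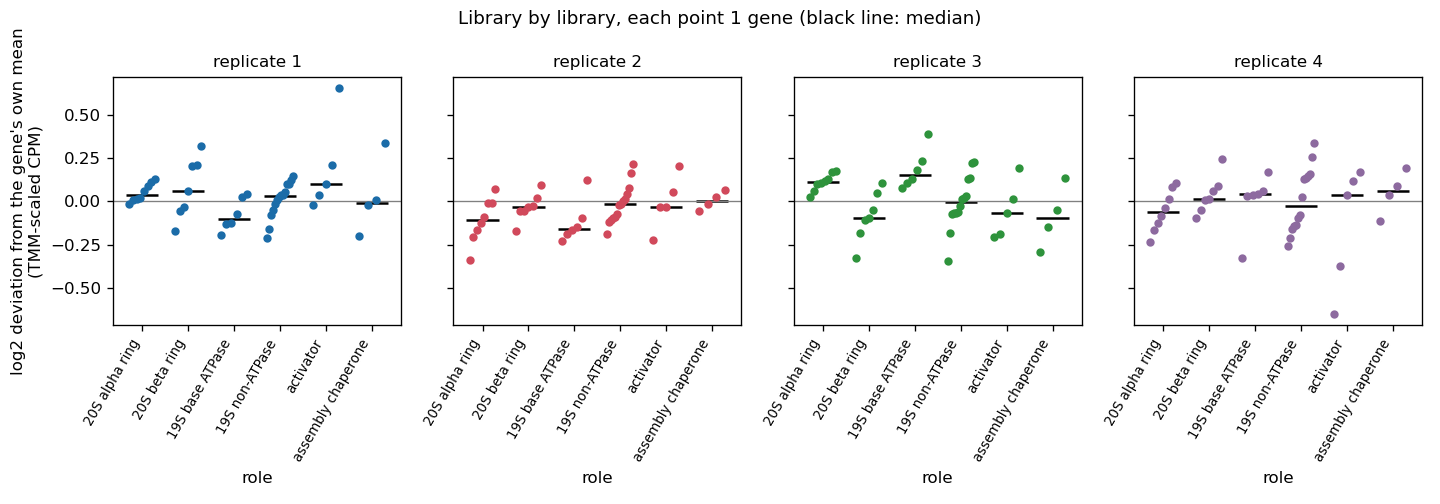
Deviation of each gene from its own mean over 4 libraries (log2, TMM-scaled CPM), by role, with 1 panel per library and the median as a black line. In replicate 3 the 8 alpha genes and the 6 ATPases all lie above 0, with medians of 0.11 and 0.15.

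The number of read files splits the libraries in a way that is not a condition. Comparing replicates 3 and 4 with replicates 1 and 2 by edgeR's quasi-likelihood test called 0 of 12667 genes (0%), with 897 under an unadjusted p of 0.05, while DESeq2 called 95. Of the 46 proteasome genes neither called any. Under an unadjusted p of 0.05 by edgeR were 3: Psme2b (log2 difference -0.90, adjusted p = 0.636), Psmb5 (-0.45, adjusted p = 0.676) and Psmd10 (-0.37, adjusted p = 0.683). These were lower in both libraries with 4 read files than in both with 6. The median difference was 0.01 over the 46 and 0.03 over all genes tested.

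The deposited second quantification, which its records derive directly from the reads, gives another reading of the same libraries. The comparison used counts scaled to each library's total, and not TPM. Of 11237 genes compared, 621 (5.53%) differed by at least 0.5 on the log2 scale at an adjusted p of 0.05 (limma), and 0 of the 46 proteasome genes did. By adjusted p alone 28 of the 46 passed, beside 4561 of the 11237 genes (40.6%). Without replicate 2 it was 5 of the 46, beside 11.4% of the genes, and without replicate 4 it was 17, beside 22.0%. The median difference over the 46, second minus first, was -0.05, beside -0.03 over all genes. Genes at either end stood apart. Psma3 differed by -0.41, -0.39, -0.43 and -0.42 in replicates 1 to 4 (limma adjusted p = 9.09e-06). Psme2b differed by 0.43, 0.31, 0.50 and 0.26 (limma adjusted p = 0.00254). Mean TPM, which was not tested, gave another size of change. Its ratio of second to first was 0.580 for Psma3 and 1.01 for Psme2b, beside a median of 0.791 over the 46.

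For Psma3 the values of its pseudogene moved the other way. The processed pseudogene Gm13835 holds 74.1% of the 50-base stretches of the leading Psma3 transcript. It had 11.5, 14.3, 5.57 and 2.94 TPM in the first quantification and 68.0, 63.7, 103 and 75.8 TPM in the second. Psma3 itself went from 246 ± 23.6 TPM in the first to 143 ± 27.5 TPM in the second. Sharing of this size was found in few members: in 12 of 47 leading transcripts at least 10% of the stretches also occur in another gene, in 6 at least 50% (Psma3, Psme2b, Psme2, Psmb5, Psmb3 and Psma5), and in 25 none. The pseudogene nearest to Psmb5, Gm3375, was at 0.320 TPM, and that nearest to Psma5, Gm8394, at 2.07 TPM.

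**Figure D5:**
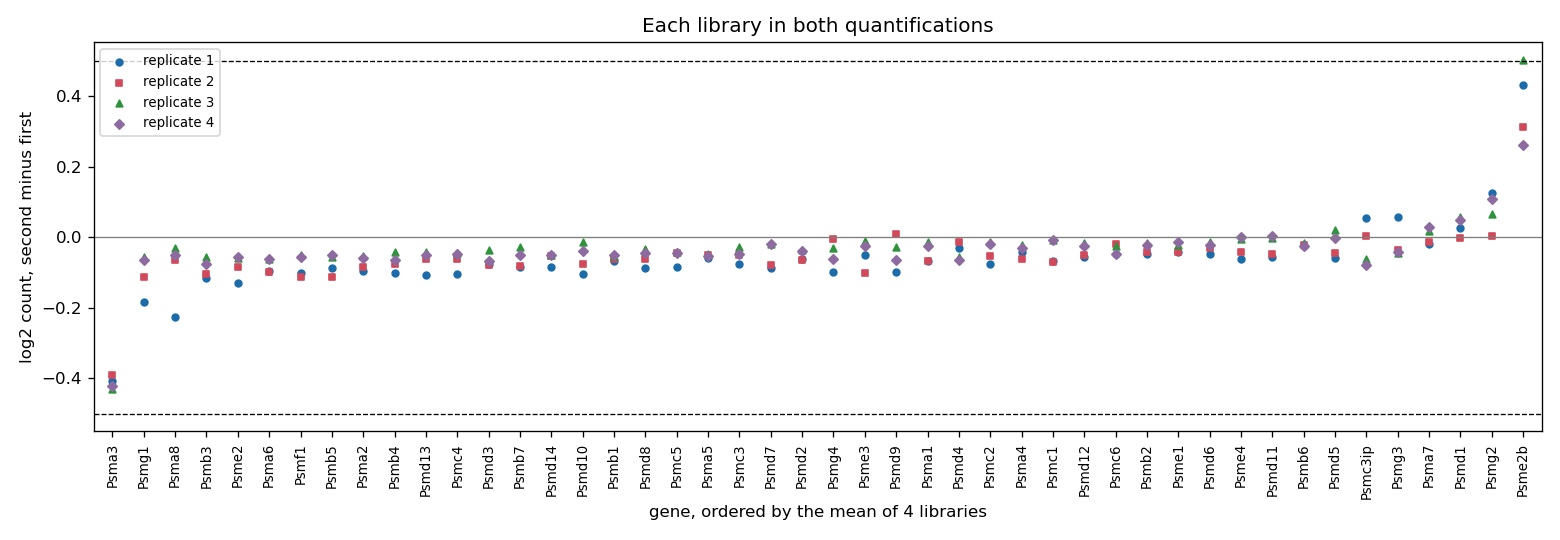
Difference in log2 count between the second and first quantification for 46 proteasome genes, each library a point, with dashed lines at the threshold of 0.5. Psma3 (mean -0.41) and Psme2b (mean 0.38) stand apart, and the means of the other genes lie between -0.10 and 0.08.

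Most proteasome genes were read from 1 transcript. The first transcript-level tables list 257 transcripts of these genes, and in 32 of the 46 detected genes the leading one carried at least 90% of the gene's level, with a median of 95.7%. It was protein coding in 44 of 46 and was the same in both quantifications in 45, Psma3 being the exception. The genes led by another kind of transcript were Psma3 and Psmc3ip. In Psmc3ip this rests on replicate 2: the retained intron Psmc3ip-202 carried 29.6%, 85.5%, 34.2% and 46.0% in replicates 1 to 4, and the protein-coding Psmc3ip-201 carried 55.1%, 14.5%, 48.6% and 54.0%. Without replicate 2, Psmc3ip-201 led and the leading transcript was protein coding in 45 of 46. Without any other library it was protein coding in 44. The leading transcript of Psmd11, Psmd11-214 (protein coding), carried 49.1% ± 3.98.

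In Psma3 the leading transcript of the first quantification, Psma3-201, is annotated for nonsense-mediated decay, and that of the second, Psma3-203, as a retained intron. The share of Psma3-201 was 50.9%, 48.2%, 35.5% and 34.9% in replicates 1 to 4. The protein-coding Psma3-204 had 9.89%, 9.67%, 32.8% and 35.1% in the first quantification and 2.58%, 4.88%, 9.81% and 13.7% in the second. Both quantifications thus gave Psma3-204 a larger share in the libraries with 4 read files than in those with 6, at different sizes. This transcript was singled out after its values were seen, and the part of the read files in it was not tested.

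Other genes of the pathway were measured alongside. Of 4 further particle parts and core chaperones, all had at least 1 TPM in each library and 0 were called for spread between libraries. Pomp, which completes core assembly, was the highest at 467 ± 98.6 TPM, far above the chaperones Psmg1 to Psmg4, while the subunit Sem1 had 93.6 ± 15.8 TPM and the ubiquitin receptor Adrm1 had 71.1 ± 3.75 TPM. Among 8 regulators of proteasome genes, all detected and 0 called, Nfe2l2 had 278 ± 62.7 TPM, Vcp 166 ± 25.3 TPM and Nfe2l1, the factor that raises proteasome transcripts when proteasomes fail, 153 ± 43.1 TPM. The protease Ddi2, which cuts the Nfe2l1 protein, had 16.1 ± 1.67 TPM.

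All 5 genes listed for proteasome-bound proteins (Usp14, Uchl5, Ube3c, Ube3a and Ecpas) were detected. Usp14, a deubiquitinase, was the highest at 50.3 ± 6.15 TPM. All 6 shuttle genes were detected, led by Rad23b at 71.5 ± 6.91 TPM. Among ubiquitin and E1 genes, the ubiquitin gene Ubb had 1578 ± 218 TPM and the E1 enzyme Uba1 had 122 ± 17.8 TPM. In a last list, Zfand5, Txnl1 and Zfand2a had 98.1 ± 8.68, 71.0 ± 7.59 and 57.2 ± 12.7 TPM. None of the genes named in these lists was called for spread between libraries by the edgeR test, as against 2.61% of all genes.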

How the data were processed

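RNA selected by polyA was sequenced from 4 libraries of 1 group. For each library the authors deposited gene-level tables with an expected count, not normalised, and TPM, scaled to library and length, per the file headers; transcript tables with the share of each transcript in its gene in percent, per the file headers; and a second transcript quantification with estimated counts and TPM. Deposited records name mm10 and GENCODE M21 and give the read files. The programs are not given in the sources used here. The posterior SD of each count was read as a check.

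From these, levels were given as mean and SD, with 1 TPM in each library as detected. Expected counts were rounded for edgeR 4.0.16 (filterByExpr, TMM) and DESeq2 1.42.0, and the quantifications were compared in limma 3.58.1 after adding 1 count, in R 4.3.3. Adjustment was Benjamini-Hochberg over all genes at 0.05. The 3 fits across all genes were tested on simulated data. Ratios were computed in Python 3.11.15, and the Psme2 alignment in Biopython 1.88. Overlap of genes used exons of GENCODE M21. Promoters came from RefSeq, GRCm38.p6.

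Named with every library were the catalytic genes, the highest and lowest gene of each role, Psme1 to Psme4, called genes and those under 1 TPM. The genes and lists were chosen with earlier results of these data known. Of 5 listed parts and chaperones, Paaf1 is not analysed here, and 1 gene of another list is not reported here. The limit given for a gene without counts covers counting error only, and PCR reads are not independent molecules.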

Additional observations from a re-analysis of the deposited data

Results flagged for a closer look

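Each of the 46 detected genes and 6 ratios was looked at for 1 library far from the other 3, judged by the gap to the nearest library over the whole range. Chance gives such a gap in about 1 in 20 groups of 4, and 2 were found. Psmb1 had 90.34 TPM in replicate 1, the lowest, against 106.09 to 108.88 TPM in the others. On TMM-scaled CPM (counts scaled to library size) the gap was not there: Psmb1 had 101.8, 102.0, 109.6 and 110.6 in replicates 1 to 4. The log2 ratio of Psme1 to Psme3 was 3.57 in replicate 2, the highest, against 3.29, 3.31 and 3.33 in replicates 1, 3 and 4.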

How the results depend on the processing

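The count of proteasome genes called was 0 in each of the 3 tests under every alternative run, each library left out in turn included. Where a library was left out of the read-file split, the lone library was taken to vary like the pair. The median log2 level of 6.65 was 6.31 in the second quantification and 6.12 on TMM-scaled CPM per kilobase, with 6.62 to 6.69 when leaving out 1 library. The second quantification gave a lower TPM by a median factor of 0.791 over the 46 genes and 0.816 over 10399 detected genes. Its median leading-transcript share was 91.0% in place of 95.7%. The means of all 6 ratios kept their sign under every alternative, though from counts not divided by length the libraries split on Psme1 to Psme2 and on Psmb6 to Psmb9. By adjusted p alone, 28 of the 46 differed between quantifications (40.6% of all genes), but 5 without replicate 2 (11.4%) and 17 without replicate 4 (22.0%).

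Over all genes, the count varying between libraries was 135 without replicate 1 in place of 305. The read-file count of 0 became 95 with DESeq2, 35 with no filter, 13 without replicate 2 and 2 without replicate 3. The count between quantifications was 1269 with no filter in place of 621. On TPM, replicate 1 was lowest for 21 of the 46 genes, yet 30 lay above their own mean there on TMM-scaled counts, so an order of libraries depends on the scaling. No comparison between conditions was possible because there is 1 group. With 4 libraries, differences within the spreads given are not detectable.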
